A study of Mus musculus with 16 samples.

Results

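The livers of mice given MI763F, a ligand of the constitutive androstane receptor (CAR) known only by its code name, were compared with those of vehicle-treated mice in the absence of ethinylestradiol. The members were chosen by their sample titles, 4 libraries labelled CM and 4 labelled CV, which make 8 of the 16 libraries of the series, and every gene of the table was compared as CM minus CV. All mice carried the genotype Humanized PXR-CAR-CYP3A4/3A7, in which human forms of the receptors PXR and CAR and of CYP3A enzymes are present, so the controls carried it too. CV mice received propylene glycol. CM mice received MI763F at 2.5 mg/kg by oral gavage on 6 consecutive days from day 2, in a mixture of corn oil (90%), DMSO (5%) and PEG300 (5%). The labels do not say whether CV mice were gavaged with this mixture, so the ligand and its oral formulation cannot be told apart here. The sources used here give neither sex nor age. The other 8 libraries, used for the spread and for 1 later comparison, came from mice of the same genotype given ethinylestradiol, a synthetic estrogen, at 10 mg/kg for 7 days, either alone (EV, 4 libraries) or with the same MI763F dose (EM, 4 libraries). The labels do not state that each library came from a separate mouse, so the p-values reflect only how far these samples spread, which may be technical.

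CAR is a nuclear receptor of hepatocytes that moves from the cytoplasm to the nucleus when activated, binds DNA as a partner of the retinoid X receptor and raises transcription of enzymes that oxidise, conjugate and export drugs, bilirubin, steroids and bile acids. In mouse liver its classical target is Cyp2b10, and it shares many targets with PXR, the pregnane X receptor. Activators of CAR are also known for effects on hepatocyte growth and on energy metabolism in rodents.

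The 8 libraries held 15164175 to 21473227 estimated counts, and 12918 of 13006 genes were tested. The libraries of the 2 groups were about as similar across groups (correlation of log2 CPM, which are counts scaled to a common library size, 0.918 to 0.949) as within CV (0.935 to 0.947) or CM (0.930 to 0.944). On the first principal component of these 8 libraries, which held 20.6% of the variance, the CV libraries lay between -41.7 and -2.56 and the CM libraries between 2.53 and 62.7. CV replicates 1 and 2 were at -38.8 and -41.7, apart from CV replicates 3 and 4 at -6.83 and -2.56. CM replicate 2 lay farthest from CV, and CM replicate 4 and CV replicate 4 were the nearest pair across groups. The second component, with 16% of the variance, did not separate the groups. On it CV replicates 3 and 4 and CM replicate 4 lay at 21.3 to 42.8, and the other libraries at -32.4 to -13.3. The labelled tissue was checked against the hepatocyte genes Alb and Apoa1, which were at 53600 to 83500 and 9800 to 16500 CPM in these libraries.

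Because CAR binds promoters and enhancers of its targets, the bases just upstream of 3 genes that rose are shown, the CAR targets Cyp2b10 and Cyp2c29 and the early-response gene Dusp1. They are the 250 bases before the RefSeq gene start on the gene's strand, in build GRCm38.p6. Capitals mark a match to 1 of the letter strings searched on both strands, which were AGGTCA and AGTTCA, hexamers of the kind bound by nuclear receptors, and TGACGTCA, the cyclic AMP response element, which reads the same on both strands and holds neither hexamer.
Cyp2b10, chr7:25897408-25897657, plus strand: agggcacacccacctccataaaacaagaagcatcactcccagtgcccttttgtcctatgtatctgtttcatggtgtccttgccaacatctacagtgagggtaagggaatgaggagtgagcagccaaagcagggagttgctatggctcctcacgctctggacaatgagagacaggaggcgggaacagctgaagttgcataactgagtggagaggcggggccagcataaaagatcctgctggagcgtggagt
Cyp2c29, chr19:39286835-39287084, plus strand: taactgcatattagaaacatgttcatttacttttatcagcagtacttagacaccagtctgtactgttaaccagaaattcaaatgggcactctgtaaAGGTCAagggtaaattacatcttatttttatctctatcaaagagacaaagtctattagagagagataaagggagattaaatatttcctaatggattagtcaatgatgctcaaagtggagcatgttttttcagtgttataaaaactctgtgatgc
Dusp1, chr17:26508473-26508722, minus strand: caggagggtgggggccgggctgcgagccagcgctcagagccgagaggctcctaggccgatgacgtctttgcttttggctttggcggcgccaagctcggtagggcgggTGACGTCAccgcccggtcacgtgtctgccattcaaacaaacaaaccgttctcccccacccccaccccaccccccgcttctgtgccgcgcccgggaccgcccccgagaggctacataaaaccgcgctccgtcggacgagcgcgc
The Cyp2c29 window held AGGTCA 154 bases before the start, and the Dusp1 window held TGACGTCA 143 bases before it. Neither hexamer nor the octamer was found in the Cyp2b10 window. Bases farther upstream, where enhancers can lie, were not searched. Entries were found for 9 of the 12 genes that rose, in 12 windows, and 4 of these genes had a match in any of their windows. The share of all windows with a match to any of the strings was not computed, so that count has no background here. Among 32851 promoter windows of the same length, 14% held AGGTCA, 11.8% held AGTTCA and 1.55% held TGACGTCA. Pairs of AGGTCA in the same direction, spaced by 4 bases or by 1 base, or of AGTTCA spaced by 4 bases, were searched too, occurred in 0.0152%, 0.0335% and 0.00913% of all windows, and were in none of the windows of the genes that rose. A match of letters describes the sequence and is no evidence of binding.

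With MI763F alone, 12 genes rose and none fell (quasi-likelihood test in edgeR, Benjamini-Hochberg adjusted p under 0.05 over 12918 genes). They were the CAR target cytochromes P450 Cyp2b10 and Cyp2c29, the early-response phosphatase gene Dusp1, the stress cytokine gene Gdf15, the lipolysis inhibitor gene G0s2, the RNA decay factor gene Zfp36l1, and St5, Ifi27l2b, 4931406C07Rik, Vcpkmt, Mrnip and Gm20075. These are 0.0929% of the genes tested. In each of the 12 all 4 CM libraries lay above all 4 CV libraries, a pattern that 2.24% of all genes showed, while 1.9% showed all CM libraries below. At an unadjusted p under 0.05, 5.98% of genes were higher and 4.56% lower. DESeq2 called 168 genes up and 70 down, the 12 among them. The median log2 fold change of all genes was -0.003, 49.2% of genes had a positive fold change, and 4.3% differed by more than 2-fold in either direction. The shares of all genes given here are the background for the counts of list members below.

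**Figure D1:**
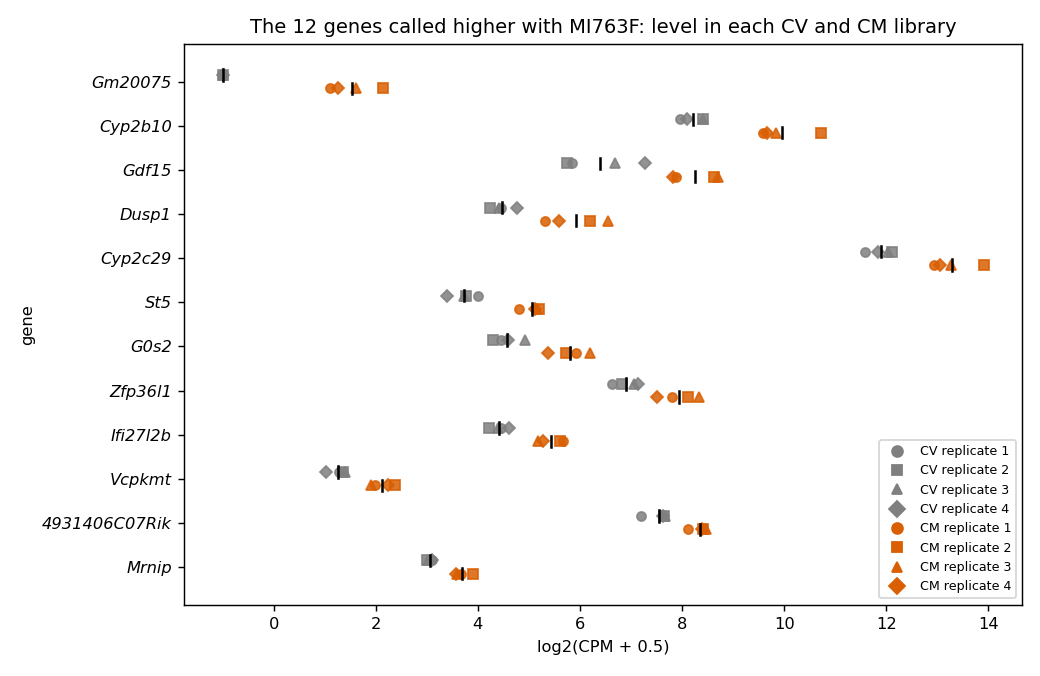
Level of each of the 12 genes that rose, as log2(CPM + 0.5), in the 4 CV libraries (grey) and the 4 CM libraries (orange), with the symbol marking the replicate and a black bar the mean of each group; genes are ordered by fold change. In every gene the CM points lie to the right of the CV points, and CM replicate 2 (square) is the farthest to the right for Cyp2b10 and Cyp2c29.

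Cyp2b10 (ENSMUSG00000030483) measured 250, 339, 339 and 274 CPM in CV replicates 1 to 4 and 764, 1690, 920 and 808 CPM in CM replicates 1 to 4. The groups did not overlap, and CM replicate 2 was far above the other CM libraries. The mean was 3.48-fold higher in CM, from 301 ± 46 to 1050 ± 440 CPM (SD over 4 libraries in each group), or by 1.80 ± 0.26 (SE) on the log2 scale (adjusted p = 0.00953). Cyp2c29 (ENSMUSG00000003053), an epoxygenase of arachidonic acid, measured 3060, 4400, 4180 and 3660 CPM in CV and 7800, 15500, 9890 and 8540 CPM in CM. Again CM replicate 2 was highest, CV replicate 1 was lowest, and the lowest CM library exceeded the highest CV library. Its log2 fold change was 1.45 ± 0.20 (adjusted p = 0.00756). Both calls ended without CV replicate 1, at adjusted p = 0.0667 for Cyp2b10 and 0.0515 for Cyp2c29, and held with each of the other 7 CV and CM libraries left out. CV replicate 1 had the highest summed level of 22 acute phase and complement genes in CV, 75300 CPM against 29400 to 39700. In CM replicate 1 was highest as well, at 89300 CPM against 29800 to 53100. The part of this library difference in the calls was not tested.

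Of 18 measured CAR and PXR target cytochromes P450, these 2 rose, 12 had a positive fold change and the median was 0.31 against -0.003 for all genes (0.19 without CV replicate 3). In 4 of them all CM libraries lay above all CV libraries (7 without CM replicate 1), and in none below. The others were Cyp2c50, at 402 to 761 CPM in CV and 886 to 1290 in CM (0.88 ± 0.26, adjusted p = 0.235), and Cyp3a16, at 1.30 to 4.20 and 4.28 to 7.64 CPM (1.48 ± 0.37, adjusted p = 0.17). Cyp2c55 measured 11.5, 32.6, 17.9 and 17.4 CPM in CV and 28.4, 213, 63.3 and 80.8 CPM in CM. Its CM replicate 1 lay below the highest CV library, and it did not pass the test (2.28 ± 0.58, adjusted p = 0.181). Cyp2c37 was at 669 to 1150 CPM in CV and 1020 to 1760 in CM and did not pass either (0.60 ± 0.22, adjusted p = 0.338). Cyp2b9, a close relative of Cyp2b10, overlapped fully between the groups, at 260 to 414 CPM in CV and 237 to 375 in CM (-0.12 ± 0.38, adjusted p = 0.954). Reads of the Cyp2b, Cyp2c and Cyp3a families can be divided among near-identical members, so values of single members are uncertain.

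The entry ENSG00000160868, 1 of 3 human-format identifiers for which the mouse table gives no symbol, measured 750, 2090, 1130 and 1000 CPM in CV and 1950, 4360, 3380 and 2960 CPM in CM. The groups overlapped by 1 library in each, since CV replicate 2 exceeded CM replicate 1. It did not pass the test (1.35 ± 0.35, adjusted p = 0.182). The other human-format entries were level between groups, ENSG00000143257 at 180 to 245 CPM in CV and 120 to 254 in CM (-0.07 ± 0.21, adjusted p = 0.947), and ENSG00000144852 at 54.4 to 65.9 and 60.8 to 73.0 CPM (0.15 ± 0.10, adjusted p = 0.622). Mouse Nr1i3, which encodes mouse CAR, was at 24.6 to 37.3 CPM in CV and 20.2 to 34.6 in CM (-0.07 ± 0.20, adjusted p = 0.952). Nr1i2, which encodes mouse PXR, was at 11.2 to 12.6 and 11 to 14.7 CPM (0.13 ± 0.09, adjusted p = 0.694). In mice that carry human counterparts, the division of reads between mouse and human genes is uncertain. This holds for Cyp3a16 too, at 1.30 to 7.64 CPM in the 8 CV and CM libraries, where ENSG00000160868 was at 750 to 4360 CPM. Whether part of the Cyp3a16 reads came from that entry was not tested.

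None of the 23 measured CAR and PXR target conjugation enzymes passed the test, while 18 had a positive fold change and the median was 0.33. Gsta1, a glutathione S-transferase, measured 1.64, 2.67, 0 and 4.54 CPM in CV and 4.81, 48.3, 13.3 and 27.2 CPM in CM (3.38 ± 0.85, adjusted p = 0.181). The lowest CM library was barely above the highest CV library and the values differed widely within CM. Gstm2, another transferase of the same class of enzymes, was at 150 to 165 CPM in CV and 184 to 273 in CM, without overlap (0.48 ± 0.13, adjusted p = 0.217). Gstm3 was at 224 to 372 CPM in CV and at 217, 1400, 644 and 850 CPM in CM, where replicate 1 fell within the CV range. The sulfotransferase Sult2a1 was at 1290 to 1680 CPM in CV and 1710 to 2310 in CM, without overlap (0.36 ± 0.39, adjusted p = 0.819). Its standard error rests on the spread over all 16 libraries, and Sult2a1 ran from 89.8 to 559 CPM in EM. The bilirubin glucuronosyltransferase Ugt1a1 was at 664 to 775 CPM in CV and 728 to 932 in CM (0.10 ± 0.17, adjusted p = 0.898). In 4 of the 23 enzymes all CM libraries lay above all CV libraries (1 with library totals in place of the scaling factors). Sult2a7 stood out by 1 library, at 434 to 673 CPM in CV and at 554, 0.705, 562 and 450 CPM in CM, with CM replicate 2 near 0. Members of the Sult2a and Gstm families also resemble each other closely.

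Among 19 CAR and PXR target reductases, esterases and transporters none passed the test, 14 had a positive fold change and 8 had an unadjusted p under 0.05, all of them higher in CM. Akr1b7, an aldose reductase, measured 11.4 to 15.9 CPM in CV and 20.2, 82.8, 30.9 and 38.8 CPM in CM (1.58 ± 0.46, adjusted p = 0.23). Gadd45b, a growth arrest gene whose product binds CAR, was at 59.3 to 103 CPM in CV and 149 to 220 in CM (1.34 ± 0.32, adjusted p = 0.156). These 2 were the members without overlap (7 members without CM replicate 1, 5 without CV replicate 4, 4 without CV replicate 3). Ephx1, a microsomal epoxide hydrolase, was at 152, 333, 356 and 335 CPM in CV and 340, 856, 432 and 436 CPM in CM (0.81 ± 0.27, adjusted p = 0.289). The exporter Abcc4 was at 3.02 to 4.54 and 4.51 to 15.5 CPM (1.11 ± 0.30, adjusted p = 0.208). Por, the electron donor of all microsomal cytochromes P450, and Alas1, which starts haem synthesis, overlapped between the groups (0.16 ± 0.13 and -0.27 ± 0.23). In Cyp2b10, Cyp2c29, Cyp2c55, Gsta1, Gstm3, Akr1b7, Ephx1 and Abcc4 alike, CM replicate 2 held the highest value.

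St5 (ENSMUSG00000031024), which encodes a regulator of Rab GTPases, had the smallest p of all genes. It measured 15.6, 13.1, 12.7 and 10.0 CPM in CV and 27.6, 36.4, 35.0 and 34.1 CPM in CM. The groups were separated by more than the spread within either (1.37 ± 0.13, adjusted p = 0.000341). Ifi27l2b (ENSMUSG00000021208), a member of an interferon-inducible family, measured 21.4, 18, 20.4 and 23.9 CPM in CV and 50.0, 48.0, 35.6 and 38.5 CPM in CM (1.04 ± 0.13, adjusted p = 0.0047). 4931406C07Rik (ENSMUSG00000031938) measured 147, 201, 203 and 197 CPM in CV and 277, 340, 352 and 334 CPM in CM (0.80 ± 0.11, adjusted p = 0.00756). For 4931406C07Rik replicate 1 was the lowest of its group in CV and in CM. Gm20075 (ENSMUSG00000114133) had 0 counts in every CV library and 22, 61, 33 and 36 estimated counts in CM. Its mean of 2.50 CPM in CM was 12.1-fold higher (adjusted p = 0.0018) when each CV library is set to a floor of 3 counts. That fold is no lower bound, because its smallest value above 0 in the table was 11. None of the 8 libraries with ethinylestradiol was at 0 for this gene. St5, Ifi27l2b, 4931406C07Rik and Gm20075 were called with each CV or CM library left out in turn.

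Vcpkmt (ENSMUSG00000049882), which encodes a lysine methyltransferase, measured 1.92, 2.06, 2.13 and 1.53 CPM in CV and 3.46, 4.68, 3.24 and 4.21 CPM in CM (1.03 ± 0.17, adjusted p = 0.045). Mrnip (ENSMUSG00000020381), whose product interacts with the MRN complex of DNA repair, measured 8.04, 7.56, 7.63 and 8.13 CPM in CV and 12.3, 14.5, 11.6 and 11.4 CPM in CM (0.67 ± 0.11, adjusted p = 0.0454). Its fold was the smallest of the 12.

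Immediate-early genes are switched on within minutes by growth factors, stress or other stimuli, without new protein synthesis. Dusp1 (ENSMUSG00000024190), which encodes a phosphatase that inactivates MAP kinases, was the member of this list that rose. It measured 21.3, 18.3, 20.8 and 26.8 CPM in CV and 39.5, 73.3, 93.5 and 47.5 CPM in CM (1.54 ± 0.26, adjusted p = 0.0454). Of the 25 measured members, 24 had a positive fold change, the median was 1.01 against -0.003 for all genes, and 13 had an unadjusted p under 0.05, all of them higher in CM. In 12 of the 25 all CM libraries lay above all CV libraries, and leaving out a library gave 12 to 15. The AP-1 subunit Fos measured 6.55, 2.14, 6.39 and 6.54 CPM in CV and 17.3, 67.9, 53.7 and 7.94 CPM in CM (2.75 ± 0.75, adjusted p = 0.211). CM replicates 2 and 3 were highest, and CM replicate 4 was close to CV. Its partner Jun measured 25.2, 37.7, 75.8 and 82.0 CPM in CV and 128, 280, 190 and 106 CPM in CM (1.67 ± 0.42, adjusted p = 0.171).

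Junb, at 39.3 to 66.8 CPM in CV and 79.4 to 111 in CM (0.86 ± 0.19, adjusted p = 0.128), and Ier5, at 2.37 to 4.12 and 5.15 to 7.21 CPM (1.01 ± 0.21, adjusted p = 0.109), were separated too. So were Ier2, at 37.7 to 50.1 and 55.9 to 131 CPM, the growth arrest gene Gadd45g, at 7.10 to 15.2 and 19.6 to 55.2 CPM, and the orphan receptor gene Nr4a1, at 5.41 to 36.6 and 57.2 to 86.6 CPM, none of which passed the test. Egr1 was among the members whose groups overlapped, at 142, 30.3, 37.5 and 72.6 CPM in CV and 78.9, 152, 338 and 62.5 CPM in CM. Its CV replicate 1 lay above 2 of the CM libraries. Zfp36, whose product speeds the decay of AU-rich messenger RNAs, measured 61.6 to 81.8 CPM in CV and 121, 254, 283 and 116 CPM in CM (1.43 ± 0.29, adjusted p = 0.109, or 0.0249 without CM replicate 4). Its relative Zfp36l1 (ENSMUSG00000021127) did pass, at 98.1, 112, 132 and 140 CPM in CV and 224, 276, 320 and 181 CPM in CM (1.05 ± 0.17, adjusted p = 0.0412). Ccn1, a secreted matricellular early-response gene that the list held under an older symbol and that is therefore not in its counts, measured 5.04 to 17.4 CPM in CV and 30.4 to 61.7 in CM (2.11 ± 0.45, adjusted p = 0.109). The summed level of the 25 genes was 757 to 1180 CPM in CV and 1360 to 2480 CPM in CM, so no library of either group crossed into the range of the other.

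**Figure D2:**
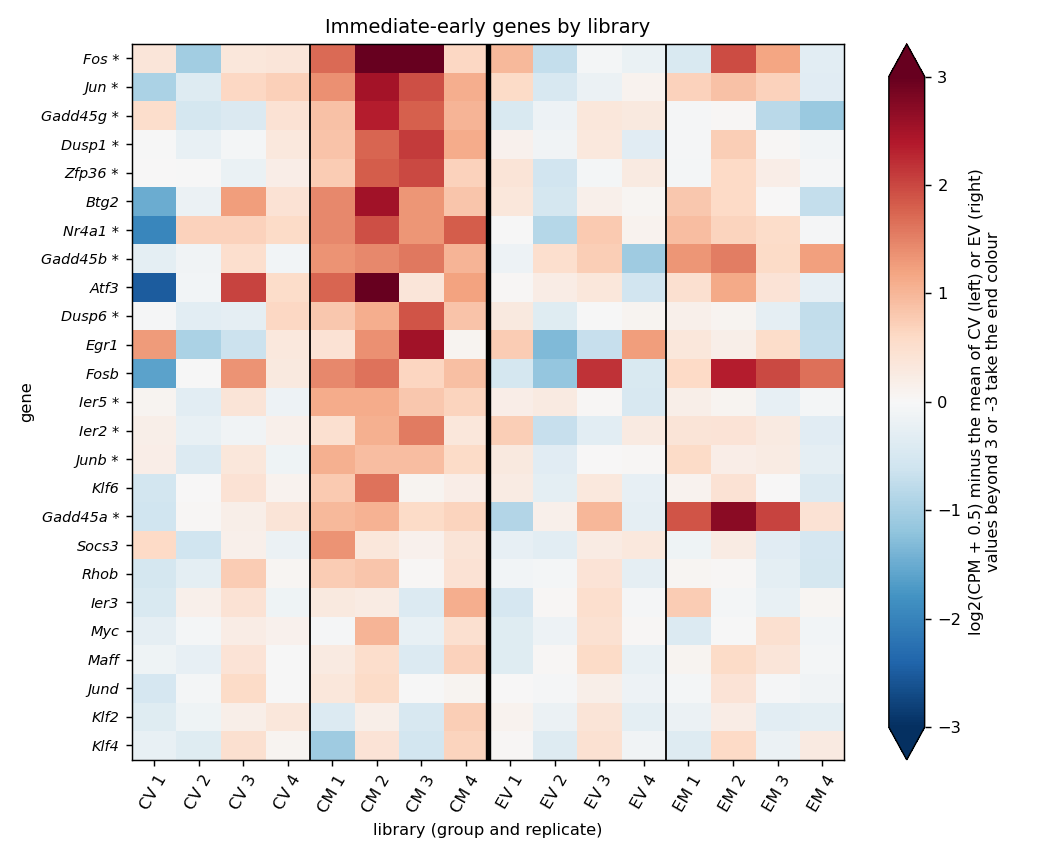
Each cell shows 1 of the 25 immediate-early genes in 1 library as log2(CPM + 0.5) minus the mean of the 4 CV libraries (left of the thick line) or of the 4 EV libraries (right of it), in red where higher and blue where lower, with values beyond 3 or -3 at the end colour. The 12 genes with an asterisk had all CM libraries above all CV libraries; the CM columns are red in most rows, and the EM columns are paler in most rows.

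Gdf15 (ENSMUSG00000038508), a cytokine released by stressed hepatocytes, measured 56.9, 53.2, 103 and 155 CPM in CV and 235, 394, 416 and 227 CPM in CM (1.79 ± 0.31, adjusted p = 0.0469). It was the member of the integrated stress response list that rose, of 16 measured. The median of that list was 0.13, and 3 members had an unadjusted p under 0.05, all higher in CM. Of all genes, 5.98% were higher at that threshold. Ddit3, the transcription factor CHOP, was at 15.1 to 28.8 CPM in CV and 32.6 to 71.7 in CM, without overlap (1.21 ± 0.38, adjusted p = 0.266). Of 17 endoplasmic reticulum chaperone genes, 16 had a negative fold change, with a median of -0.22, and 6 had an unadjusted p under 0.05, all lower in CM. Creld2 measured 121, 120, 38.8 and 59.3 CPM in CV and 42.3, 52.8, 25.8 and 25.8 CPM in CM (-1.21 ± 0.39, adjusted p = 0.287), and the major chaperone gene Hspa5 was at 504 to 943 and 387 to 655 CPM (-0.59 ± 0.22, adjusted p = 0.341). CV replicates 1 and 2 held the high values of both genes, and no member of the list was free of overlap.

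The growth arrest and p53 target list had 14 measured members, none of which passed the test. Its median was 0.31, and 5 members had an unadjusted p under 0.05, all higher in CM. Cdkn1a, the cell cycle inhibitor p21, measured 15.1, 8.17, 13.9 and 8.08 CPM in CV and 19.1, 113, 54.0 and 10.6 CPM in CM (2.12 ± 0.58, adjusted p = 0.211), with CM replicate 4 inside the CV range. Plk3, a stress-responsive kinase, was at 103 to 174 CPM in CV and 212 to 259 in CM (0.77 ± 0.22, adjusted p = 0.211). Of 25 proliferation genes, 20 had a positive fold change and the median was 0.58 (0.91 without CV replicate 3), but levels were low. Their summed level overlapped almost fully between groups, at 116 to 155 CPM in CV and 128 to 157 CPM in CM. Top2a, a topoisomerase of dividing cells, was at 0.236 to 0.997 CPM in CV and 1.20 to 1.93 in CM (1.77 ± 0.54, adjusted p = 0.253). The mitotic cyclin gene Ccnb2 was at 0.214 to 0.550 and 0.926 to 2.10 CPM (1.57 ± 0.45, adjusted p = 0.219). In 6 of the 25 all CM libraries lay above all CV libraries (10 without CM replicate 3).

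G0s2 (ENSMUSG00000009633), which inhibits adipose triglyceride lipase, rose from 21.4, 19.1, 30 and 23.6 CPM in CV to 59.8, 52.2, 72.8 and 40.7 CPM in CM (1.26 ± 0.22, adjusted p = 0.0469). None of the 29 fatty acid oxidation and PPARA target genes passed the test, but 27 had a positive fold change, the median was 0.36 and 15 had an unadjusted p under 0.05, all higher in CM. Pdk4, a kinase that limits pyruvate use, measured 5.27, 5.27, 7.90 and 2.95 CPM in CV and 13.1, 54.2, 16.4 and 8.04 CPM in CM (2.10 ± 0.62, adjusted p = 0.239). The fatty acid hydroxylases Cyp4a10, at 259 to 499 and 517 to 1000 CPM (0.90 ± 0.30, adjusted p = 0.289), and Cyp4a14, at 624 to 795 and 781 to 2200 CPM (0.87 ± 0.30, adjusted p = 0.302), were highest in CM replicate 2, as was the acyl-CoA thioesterase gene Acot1, at 27.8 to 58.8 and 51.3 to 207 CPM. Only 2 of the 29 genes, Pdk4 and Cyp4a10, were free of overlap, and this count was 13 without CV replicate 3, 8 without CM replicate 4 and 7 without CM replicate 3. Of 22 fatty acid and triglyceride synthesis genes, 19 had a negative fold change, with a median of -0.24 (-0.04 without CM replicate 2, -0.55 without CM replicate 4). Srebf1, which encodes the regulator SREBP-1, was at 90.3 to 164 CPM in CV and 48.4 to 97.7 in CM (-0.82 ± 0.24, adjusted p = 0.239).

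Among 18 genes of gluconeogenesis, glycolysis and glycogen, 5 had an unadjusted p under 0.05 and a higher level in CM and 2 a lower one. Over all genes these shares were 5.98% and 4.56%. None of the 18 passed the test. Igfbp1, a secreted binding protein of insulin-like growth factors, measured 308, 311, 237 and 206 CPM in CV and 437, 873, 771 and 234 CPM in CM (1.12 ± 0.33, adjusted p = 0.239). The glucose-6-phosphatase gene G6pc was at 156 to 223 CPM in CV and 221 to 497 in CM (0.83 ± 0.26, adjusted p = 0.263), and the insulin receptor substrate Irs2 at 10.1 to 14.1 and 14.1 to 26.2 CPM (0.81 ± 0.28, adjusted p = 0.312). In all 3 genes CM replicate 4 was the lowest CM library. Cholesterol synthesis and uptake genes had a median of -0.11, with 20 of 25 below 0, and CM replicate 2 set that sign, since the median was 0.15 without it. Sqle, squalene epoxidase, was at 98.7 to 154 CPM in CV, at 126 to 128 in 3 CM libraries and at 45.9 in CM replicate 2. Pparg, the lipid-storing nuclear receptor, was at 7.03 to 8.96 CPM in CV and 9.55 to 14.8 in CM (0.58 ± 0.13, adjusted p = 0.137).

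All 15 measured NRF2 antioxidant genes had a positive fold change, with a median of 0.49, and 9 had an unadjusted p under 0.05, though none passed after adjustment. Gclm, a subunit of the enzyme that limits glutathione synthesis, measured 196, 194, 247 and 207 CPM in CV and 304, 339, 263 and 277 CPM in CM (0.49 ± 0.14, adjusted p = 0.211). Haem oxygenase Hmox1 was at 12.1 to 26.4 CPM in CV and 24.6 to 62.8 in CM (0.95 ± 0.34, adjusted p = 0.337). Gclm and Gsta1 were the 2 members without overlap (6 without CM replicate 1, and 1 with library totals). Members of this list, Gsta1 and Abcc4 among them, also belong to the CAR and PXR lists.

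No gene fell by the adjusted test, but several were lower in every CM library. Socs2, an inhibitor of growth hormone signalling that growth hormone itself induces, measured 72.1, 72.0, 88.1 and 88.0 CPM in CV and 24.5, 25.6, 21.2 and 50.6 CPM in CM (-1.39 ± 0.34, adjusted p = 0.164). CM replicate 4 lay nearest to CV, and without it Socs2 passed the test (adjusted p = 0.0448). Fuom, fucose mutarotase, was at 46.3 to 54.4 CPM in CV and 31.6 to 36.1 in CM (-0.58 ± 0.12, adjusted p = 0.109). The unnamed gene models Gm45551, at 1.06 to 1.86 and 0.105 to 0.449 CPM (adjusted p = 0.0788), and Gm1943 were lower as well. Gm1943 had 269, 181, 125 and 231 estimated counts in CV and 0 in every CM library (adjusted p = 0.185). Against a floor of 3 counts it was 68.4-fold lower. That fold is no lower bound, since the gene's smallest value above 0 was 125. Gm1943 was also at 0 in 2 of the 8 libraries with ethinylestradiol, and a fit to the CV and CM libraries alone called it (adjusted p = 0.0154). Conversely ENSMUSG00000119132 had 0 counts in every CV library and 19, 109, 95 and 193 in CM (adjusted p = 0.119). Against the same floor it was 31.4-fold higher, again no lower bound, since its smallest value above 0 was 19. ENSMUSG00000119132 was at 0 in 5 of the 8 libraries with ethinylestradiol.

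Male-predominant liver genes had a median of -0.41 over 16 measured members, of which 12 had a negative fold change. In 3 of them, all major urinary protein genes, every CM library was below every CV library. Mup7 measured 32.7, 155, 76.3 and 53.3 CPM in CV and 30.1, 2.69, 23.3 and 18.7 CPM in CM (-2.09 ± 0.57, adjusted p = 0.211), and Mup3 was at 1720 to 3180 CPM in CV and at 1480, 197, 1240 and 1520 CPM in CM (-1.15 ± 0.54, adjusted p = 0.482). CM replicate 2 was the lowest library of both, and Mup genes are near copies of each other. Female-predominant genes had a median of 0.04 over 20 members. Among them Prom1, a membrane glycoprotein, was at 6.19 to 8.04 CPM in CV and 12.9 to 41.4 in CM (1.66 ± 0.34, adjusted p = 0.109).

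Bile acid genes did not pass the test in any case. Cyp7a1, which controls the main route of bile acid synthesis, measured 76.7, 60.4, 46.3 and 66.2 CPM in CV and 14.7, 6.99, 30.2 and 58.2 CPM in CM. CM replicate 4 lay within the CV range and the other 3 CM libraries below it, and the interval of the log2 difference ran from -2.69 to 0.34 (95%). Cyp8b1, needed for cholic acid, was at 76.5 to 144 and 48.7 to 291 CPM (0.35 ± 0.50, adjusted p = 0.872). Cyp27a1 (-0.23 ± 0.15) and the oxysterol hydroxylase Cyp7b1 (0.31 ± 0.16) overlapped between groups. Of 17 synthesis and conjugation genes, 2 had an unadjusted p under 0.05 and were higher, and 1 was lower. For all genes these shares were 5.98% and 4.56%. The peroxisomal enzyme gene Hsd17b4 was at 182 to 238 CPM in CV and 258 to 338 in CM (0.39 ± 0.11, adjusted p = 0.223), and Cyp2c70, which makes muricholic acids in mice, at 481 to 756 and 293 to 567 CPM (-0.57 ± 0.18, adjusted p = 0.267). The list's median was 0.00.

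For 14 transporters of bile acids and conjugates the median was -0.04. The uptake carrier Slc10a1 measured 597 to 702 CPM in CV and 401 to 734 in CM (-0.16 ± 0.17; interval -0.52 to 0.21, adjusted p = 0.82), and the export pump Abcb11 262 to 423 and 207 to 351 CPM (-0.13 ± 0.17; interval -0.50 to 0.24, adjusted p = 0.857). The bile acid receptor FXR, encoded by Nr1h4, was at 97.3 to 127 CPM in CV and 78.0 to 115 in CM (-0.10 ± 0.13, adjusted p = 0.852). Its target Nr0b2, the repressor SHP, was at 26.6 to 77.8 and 35.8 to 106 CPM (0.38 ± 0.37, adjusted p = 0.785).

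**Figure D3:**
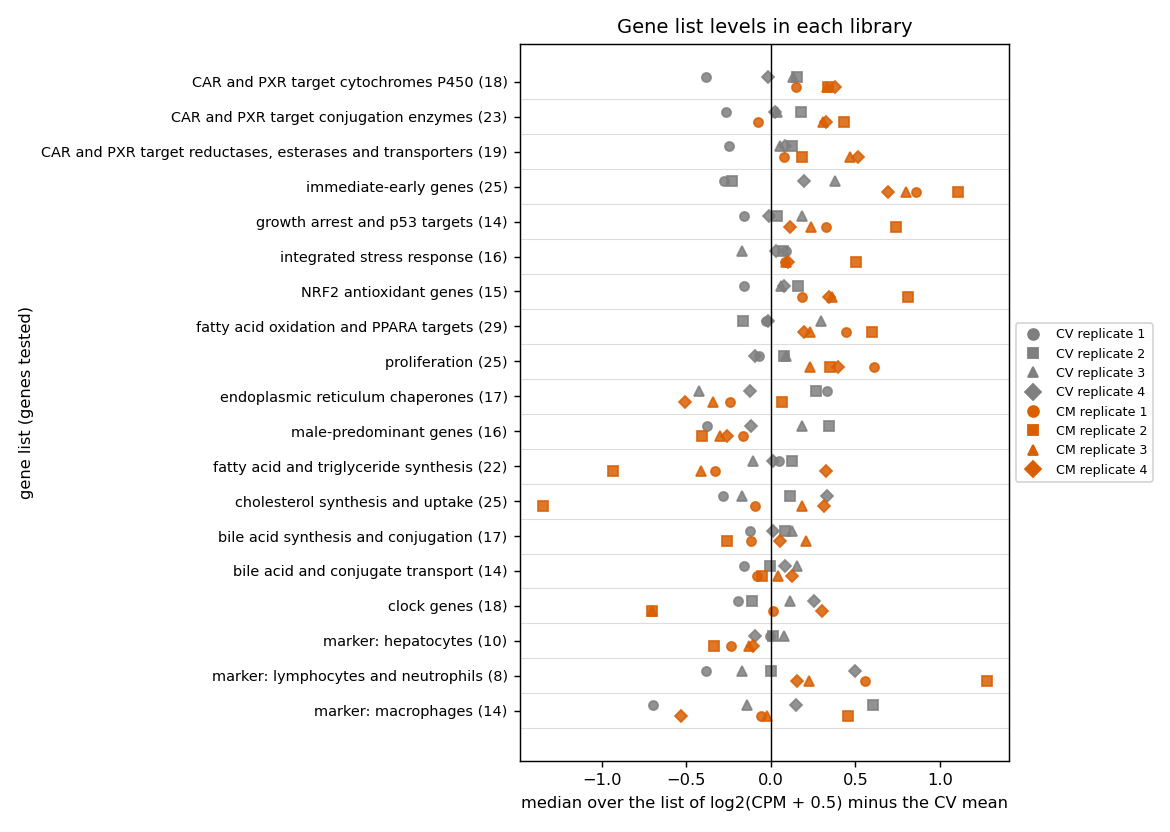
For each gene list (number of measured members in brackets), the x axis gives the median over members of log2(CPM + 0.5) minus the CV mean in each CV library (grey) and CM library (orange), with the symbol marking the replicate. The 4 orange points of the immediate-early list lie at 0.69 to 1.11, to the right of all grey points (-0.28 to 0.38), while in the cholesterol list CM replicate 2 stands alone at -1.35.

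Clock genes differed between libraries more than between groups. Their level in CM replicates 2 and 3 was -0.71 against -0.19 to 0.25 in CV and 0.01 and 0.30 in CM replicates 1 and 4. Npas2, an activator of the clock, measured 0.641, 0.458, 1.37 and 0.177 CPM in CV and 0.902, 6.67, 7.56 and 0.315 CPM in CM. Nfil3 was at 11.5 to 20.5 CPM in CV and 20.1 to 57.2 in CM (1.32 ± 0.27, adjusted p = 0.109), and Bhlhe40 at 89.1 to 202 and 200 to 272 CPM (0.80 ± 0.22, adjusted p = 0.208). CM replicates 2 and 3 were also highest for Fos, Dusp1, Zfp36, Cdkn1a and Igfbp1. Among the other genes that rose, they were the highest CM libraries for Gdf15, Zfp36l1, Cyp2b10, Cyp2c29, St5, 4931406C07Rik and Gm20075. They were not for G0s2, Ifi27l2b, Mrnip and Vcpkmt. The part of library differences in clock genes in those values was not tested.

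Markers of other cells were looked at beside these genes, since in bulk tissue a change in the number of cells and a change in RNA per cell cannot be told apart. Of the lymphocyte and neutrophil markers, 8 of 14 were in the table, 7 of them had a positive fold change and the median was 0.88. Their summed level was 10.9 to 27.2 CPM in CV and 23.5 to 55.5 CPM in CM, highest in CM replicate 2. The pan-leukocyte gene Ptprc was at 2.14 to 4.81 CPM in CV and 2.42 to 5.83 in CM, and the neutrophil gene S100a9 at 1.58 to 8.61 and 5.79 to 19.9 CPM (1.41 ± 0.58, adjusted p = 0.4). Macrophage markers (14 of 14 measured) had a median of -0.09, with sums of 387 to 987 CPM in CV and 399 to 812 in CM. All 5 cholangiocyte markers in the table, of 8 listed, had a positive fold change, with a median of 0.40. Their summed level was 48.0 to 62.7 CPM in CV and 63.0 to 88.6 CPM in CM, so the sums narrowly did not overlap, and most of it was Spp1 (36.8 to 51.9 and 50.3 to 67.7 CPM). Each single cholangiocyte marker overlapped between groups. So did the median level of this list, at 0.21 in CV replicate 2 and at 0.19 and 0.12 in CM replicates 1 and 4. Stellate and endothelial markers, 12 measured of each, had medians of 0.12 and 0.14, and red cell markers -0.28 over 5. No marker of these 6 lists passed the test. Of 10 hepatocyte markers, 9 had a negative fold change and the median was -0.18. In 4 of them, Hnf4a, Apoa1, Cyp2e1 and Fah, all CM libraries lay below all CV libraries. Hnf4a, a master regulator of hepatocytes, was at 283 to 331 and 258 to 282 CPM (-0.17 ± 0.08, adjusted p = 0.464). The 13 mitochondrially encoded genes summed to 97600 to 130000 CPM in CV and 111000 to 122000 CPM in CM. The part of these markers in the results above was not tested.

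The same MI763F dose was compared in mice given ethinylestradiol, EM against EV. The fold changes of both comparisons come from separate libraries, but their tests share 1 estimate of the spread over all 16. There 1.51% of genes rose. Of the 12 genes that rose without ethinylestradiol, Cyp2b10 was the 1 that rose with it too (1.66 ± 0.26 against 1.80 ± 0.26 without), and 7 of the 12 had a positive difference, against 49.5% of all genes. The difference between both differences was itself tested as an interaction, which called 0.132% of all genes, 13 with a larger value under ethinylestradiol and 4 with a smaller one (12 and 14 with library totals). It was called for St5 (-1.46, adjusted p = 0.00248) and for Gm20075 (adjusted p = 0.00188), and not for the other 10, and both held with each of the 16 libraries left out. St5 averaged 25.0 ± 2.4 CPM in EV and 23.4 ± 2.1 in EM, between its levels in CV (12.9 ± 2.3) and CM (33.3 ± 3.9). For Cyp2b10 the interaction was -0.14 (adjusted p = 0.897) and for Cyp2c29 -0.80 (adjusted p = 0.208). For G0s2 it was -1.62 and for Ifi27l2b -0.94 (adjusted p = 0.0559 for each).

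In the opposite direction, the sulfotransferases Sult2a1 and Sult2a5 had larger log2 differences with ethinylestradiol than without. Sult2a1 gave 4.27 with it and 0.36 without (interaction 3.91, adjusted p = 0.0139), and Sult2a5 3.15 and 0.26 (interaction 2.89, adjusted p = 0.000414). Their levels with ethinylestradiol were far lower. Sult2a1 averaged 1550 CPM in CV, 2000 in CM, 20.9 in EV and 404 in EM, and Sult2a5 averaged 367, 439, 8.12 and 72.2 CPM. In EM both stayed below every CV library, and the larger log2 differences were not larger rises in CPM. Cyp2c37 (2.12 with and 0.60 without, interaction adjusted p = 0.0615), Cyp2b9 (2.84 and -0.12, adjusted p = 0.06) and Ugt1a1 (1.15 and 0.10, adjusted p = 0.0737) did not pass the interaction test. Fuom gave 0.40 with ethinylestradiol and -0.58 without (interaction 0.97, adjusted p = 0.0446), a call that was lost with 12 of the 16 libraries left out in turn (highest adjusted p = 0.123). The 195 genes that rose in EM against EV had a median of -0.01 in CM against CV, and 86 of them were higher in CM. The immediate-early list had a median of 0.15 in EM against EV beside its 1.01 without ethinylestradiol, and fatty acid oxidation genes 0.13 beside 0.36. For the CAR and PXR target cytochromes P450 the medians were 0.93 with ethinylestradiol and 0.31 without. The medians of lists were not tested against each other.

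**Figure D4:**
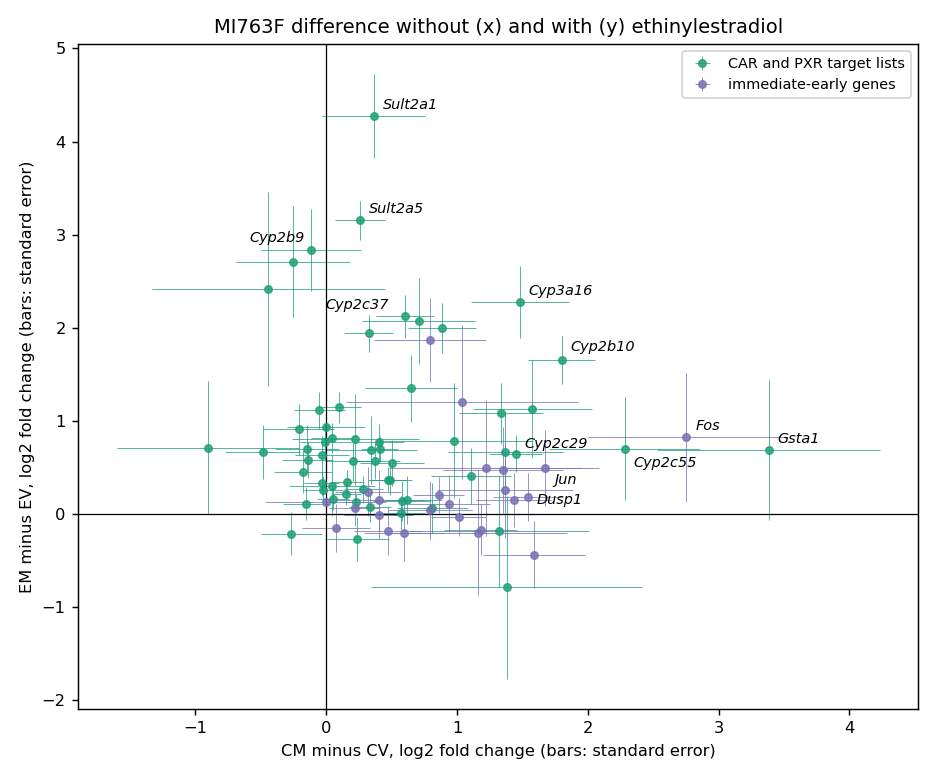
Log2 fold change with MI763F without ethinylestradiol (x axis, CM minus CV) and with it (y axis, EM minus EV) for the genes of the 3 CAR and PXR target lists (green, without Cyp2c65, whose CV libraries were all at 0) and the immediate-early genes (purple), with bars of 1 standard error. Cyp2b10 lies near equal values on both axes, Sult2a1 and Sult2a5 lie high on the y axis and near 0 on the x axis, and most purple points lie to the right of 0 and near 0 on the y axis.

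The calls of Zfp36l1, Vcpkmt, Mrnip, Dusp1, Gdf15 and G0s2 were each lost with 5 to 7 of the 8 CV and CM libraries left out in turn, CV replicates 1 and 2 and CM replicate 2 in every case, at highest adjusted p between 0.117 and 0.173. A fit to the CV and CM libraries alone called 2 genes, St5 (adjusted p = 0.0401), the 1 of the 12, and Gm1943.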

How the data were processed

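Per the labels' protocols, liver RNA was enriched for poly(A) and made into libraries with a NEBNext Ultra kit. GRCm39, STAR and Salmon are named in the submitters' processing notes, without versions. The table deposited by the authors gives whole-number estimated counts of 13006 genes for 16 libraries. Their smallest nonzero values depend on gene length, so floors are approximate, reflect only counting error and give no lower bound of a fold. Symbols came from GENCODE M21, made for an earlier build, and matched 12692 identifiers; gene coordinates are therefore not given, other than those of the RefSeq promoter table.

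Counts were filtered with filterByExpr, scaled with TMM factors (0.833 to 0.91 in CV and CM) and modelled by robust quasi-likelihood in edgeR 4.0.16 (R 4.3.3), with a coefficient for each group over 16 libraries, which left 12 residual degrees of freedom and a biological coefficient of variation of 0.284. The threshold was an adjusted p of 0.05. A standard error is the log2 fold change over the root of its F statistic, intervals are 95%, and CPM values are TMM-scaled. No pair of libraries shared more than 3.24% of gene values. The fit was tested on simulated counts. Alternatives were RLE factors, library totals, no filter, at least 1 CPM in at least 8 libraries, DESeq2 1.42.0, limma 3.58.1 with a trend (prior count 2), the replicate number as a block, CV and CM alone, and each library left out. Python 3.11.15 and matplotlib 3.10.9 made the figures.

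The comparison, 36 gene lists and naming rule were chosen with earlier results of these data known. Lists were described by counts and medians, with no list test. The rule named every called gene, the 8 largest rises and 8 largest falls at a mean log2 CPM of at least 1, unadjusted p under 0.01 and no overlap, the 3 members with the smallest p in each list, and preset CAR, PXR and bile acid genes; only some of those named are printed. Outside the rule, 18 genes were named after their values were seen: Cyp2c55, Cyp2c50, Cyp2b9, Gstm3, Sult2a5, Sult2a7, Ephx1, Jun, Junb, Nr4a1, Egr1, Gadd45g, Ier2, Cyp4a14, Mup3, Socs2, Fuom and Sqle. Some genes that the rule names are not reported here.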

Additional observations from a re-analysis of the deposited data

Results flagged for a closer look

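Single libraries stood apart from their group of 4 (gap to the next library, as a share of the range, over Dixon's 95% critical value) in 15 of 186 groups looked at, 10 in CV and 5 in CM; chance gives about 5%. Among CM libraries, replicate 2 was highest for Cyp2b10 (1690 CPM against 764 to 920 in the other libraries), and lowest for Cyp2e1 (2360 CPM against 4890 to 5100) and Sqle (45.9 CPM against 126 to 128). CM replicate 3 was highest for Ugt1a1 (932 CPM against 728 to 757) and CM replicate 4 for Socs2 (50.6 CPM against 21.2 to 25.6). CV replicate 1 was lowest for 4931406C07Rik (147 CPM against 197 to 203), Ephx1 (152 CPM against 333 to 356), Nr4a1 (5.41 CPM against 33.4 to 36.6), Ccnb2 (0.214 CPM against 0.531 to 0.55) and Slc10a1 (597 CPM against 685 to 702), and highest for Top2a (0.997 CPM against 0.236 to 0.306). CV replicate 2 was lowest for Fos (2.14 CPM against 6.39 to 6.55), CV replicate 3 was lowest for Sult2a1 (1290 CPM against 1620 to 1680) and highest for Cyp2e1 (7670 CPM against 5300 to 5630), and CV replicate 4 was lowest for Akr1b7 (11.4 CPM against 15.3 to 15.9).

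The MI763F difference was not the same with and without ethinylestradiol, by the edgeR interaction test with Benjamini-Hochberg adjustment, for St5 (-1.46 on the log2 scale, adjusted p = 0.00248), Gm20075 (-9.39, adjusted p = 0.00188, a fitted value that rests on CV libraries at 0), Sult2a1 (3.91, adjusted p = 0.0139), Sult2a5 (2.89, adjusted p = 0.000414) and Fuom (0.97, adjusted p = 0.0446). Negative values mean a smaller difference with ethinylestradiol than without. The call of Fuom was lost with 12 of the 16 libraries left out in turn (highest adjusted p = 0.123) and with library totals (adjusted p = 0.0638).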

How the results depend on the processing

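The test called 12 genes in CM against CV. The count was 12 with RLE factors and with no filter, 14 with limma, 8 with library totals, 238 with DESeq2 and 2 in a fit to CV and CM alone, St5 and Gm1943. Leaving out a library gave 4 (without CV replicate 1) to 39 (without CM replicate 4). The interaction called 17 genes, 26 with library totals, 26 with limma, 462 with DESeq2 and 10 to 208 with a library left out (208 without EM replicate 1, 95 without CM replicate 4). With the replicate block, 6 genes were called in CM against CV and 79 in the interaction. The numbers were not taken as pairs, since same-numbered CV and CM libraries deviated together with correlations of -0.046 to 0.079 and 1 of 4 matched its own number best. Library totals gave a median log2 fold change of all genes of -0.0025 against -0.003, and no named gene's fold change turned sign with RLE factors or library totals. Over 93 genes named, 9 fold changes turned sign, each of an uncalled gene with 1 library left out: ENSG00000143257 (-0.1932 to 0.1159 over libraries left out; 0.0015 without CV replicate 2, 0.1159 without CM replicate 2), Nr1i3 (-0.1625 to 0.0789; 0.0358 without CV replicate 3, 0.0789 without CM replicate 2), Cyp8b1 (-0.4011 without CM replicate 3 to 0.6276 without CM replicate 2), Abcb11 (-0.2324 to 0.0353; 0.0353 without CV replicate 2, 0.0024 without CM replicate 1), Nr1h4 (-0.1617 to 0.0134; 0.0134 without CM replicate 2) and Sqle (-0.2572 to 0.0932; 0.0932 without CM replicate 2). The cause was not tested. Library totals also ended the calls of Dusp1 and G0s2 (adjusted p = 0.0611 each), Gdf15 and Mrnip (adjusted p = 0.0722 each). Leaving out libraries with ethinylestradiol ended the calls of Zfp36l1, Vcpkmt, Mrnip, Dusp1, Gdf15 and G0s2 in 5 to 8 of 8 cases (highest adjusted p = 0.0801). Low counts limit the folds of proliferation genes, Gsta1 and Gm20075.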
